A study of Mus musculus with 32 samples.

Results

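The difference in RNA between hippocampus and cortex was compared between somatostatin (SST) interneurons and CamK neurons of the mouse forebrain. The quantity is a difference of differences on the log2 scale, the hippocampus minus cortex effect in SST neurons minus the hippocampus minus cortex effect in CamK neurons. It is 0 where a transcript feature changes with region by the same factor in both populations, positive where SST moves up relative to CamK, and negative where SST moves down relative to CamK. The comparison uses 16 of the 32 libraries of the series, 4 for SST hippocampus, 4 for SST cortex, 4 for CamK hippocampus and 4 for CamK cortex, chosen by their titles and tissue labels. The other 16 libraries also entered the filter that set which features were tested, the scaling and the estimate of the spread. Their own values are given only where Grik hippocampus, PV cortex, Scnn cortex and VIP cortex are named.

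All libraries are labelled wild type, and all hold RNA described as associated with ribosomes. From knowledge of the study, and not from the labels, such RNA was captured on a tagged ribosomal protein switched on by Cre recombinase in each population, so that a group holds whatever cells the Cre driver reached in that tissue. The labels give no age, no sex and no animal of origin, and nothing says that the 4 libraries of a group came from separate animals, so p-values measure the spread between these libraries, which may be technical. All SST hippocampus and CamK hippocampus titles carry a W and no SST cortex or CamK cortex title does, so within a population a regional effect cannot be told apart from one of the title series. Each difference between SST and CamK is, however, taken within 1 title series, and a factor of the series that acts alike on both populations leaves the difference of differences as it is. A factor that acts unlike on SST and on CamK cannot be told apart from it.

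SST neurons are inhibitory interneurons that release GABA and the peptide somatostatin, mostly onto the dendrites of principal cells. In the cortex many are Martinotti cells, whose axons reach the superficial layers, and in the hippocampus many are cells of the stratum oriens that project to the outermost layer. They are born in the ventral forebrain and migrate into both regions. The CamK driver marks excitatory, glutamatergic neurons, pyramidal cells among them. These neurons are born locally in the cortex and in the hippocampus and differ in layer and field.

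Each feature is known by a GSMG number alone. No gene name stands beside it in the deposited table, and a search of the reference gene tables found 0 such numbers. No marker of SST or CamK neurons, or of any other cell type, could therefore be looked up, the labelled identities were not checked, and at most 2 features in each direction are printed for a comparison. Because each library pools many cells, a change in the share of a cell type and a change in the RNA per cell cannot be told apart. Library totals lay between 104350512 and 114153919 expected counts in 15 of the 16 libraries and at 186505391 in SST hippocampus replicate 1.

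Population was the main axis of these 16 libraries, region the next, and the difference of the regional effects came after both. On log2 CPM (counts scaled to library size) with a prior count of 2, summed over 24555 features tested, the population accounted for 44.9% of the variance, region for 14.6%, and their interaction for 8.92%. The spread between libraries of a group made up the remaining 31.6%. Per degree of freedom the interaction was 3.39 times the spread within groups, region 5.55 times and population 17.1 times, which is given as a description over features that are not independent. The root mean square difference between group means was 0.788 for hippocampus against cortex in SST neurons and 0.996 for the same regions in CamK neurons. For SST against CamK it was 1.39 in the hippocampus and 1.32 in the cortex.

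The same order appeared in a principal component analysis, in which the sign of an axis is arbitrary. Component 1 (45.3% of the variance) set SST hippocampus (mean 106) and SST cortex (88.6) apart from CamK hippocampus (-95.4) and CamK cortex (-99). Component 2 (15.7%) ran from hippocampus to cortex in both populations. It placed SST hippocampus at 29.3 ± 4.81 and SST cortex at -33.3 ± 6.09, and CamK hippocampus at 76.8 ± 7.83 and CamK cortex at -72.7 ± 3.34 (SD, n = 4 each). Component 3 (7.94%) ran opposite ways with region, with SST hippocampus at 49.3 ± 8.27 and SST cortex at -54.4 ± 10.1, but CamK hippocampus at -19.5 ± 14.5 and CamK cortex at 24.6 ± 5.29. On component 3 the libraries of hippocampus and cortex did not overlap in either population.

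**Figure D1:**
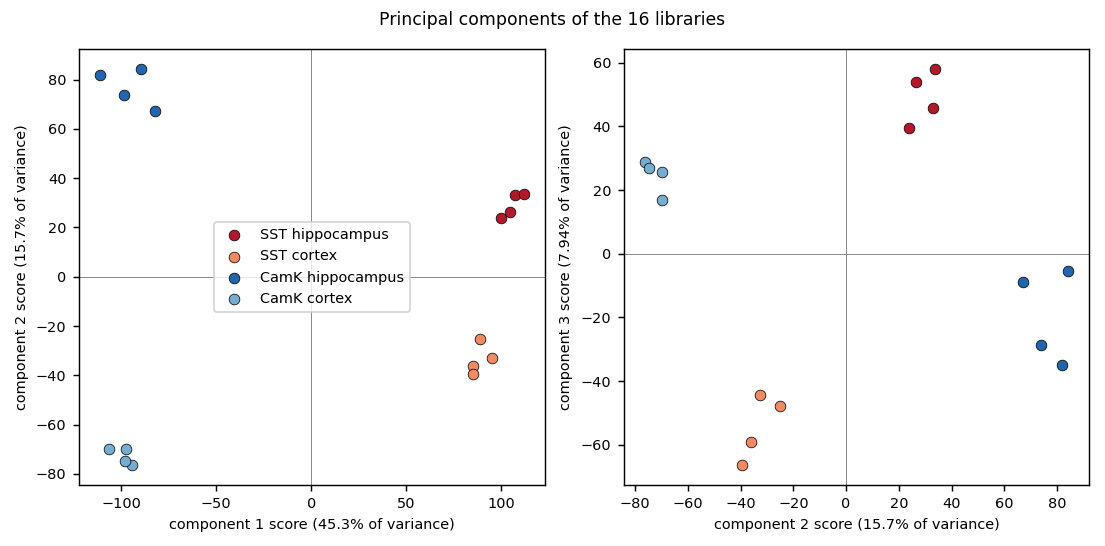
Scores of the 16 libraries on principal components 1 and 2 (left) and 2 and 3 (right), computed on log2 CPM with a prior count of 2, with 1 point per library and the share of variance on each axis. On component 3 SST hippocampus (mean 49.3) lies above SST cortex (-54.4), while CamK hippocampus (-19.5) lies below CamK cortex (24.6).

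A feature was called where edgeR's quasi-likelihood test gave a Benjamini-Hochberg adjusted p under 0.05 and the difference was at least 2-fold. By this rule 2659 of 24555 features, 10.8% of those tested, had a regional effect that differed between SST and CamK neurons. Of these 1571 were higher in SST relative to CamK (59.1%, or 6.40% of features tested) and 1088 were lower (4.43%). Without the fold threshold 5694 features passed (23.2%), 2991 of them higher (12.2%) and 2703 lower, so the excess of higher features was smaller there. At an unadjusted p under 0.05 there were 8327 (33.9%). The median size of a called difference was 1.92 on the log2 scale with a median SE of 0.41. The difference was at least 4-fold in 800 of the higher and 477 of the lower features, and at least 16-fold in 248 of the higher and 138 of the lower. Over all features tested the middle of the distribution lay near 0, with a median of 0.041 and quartiles of -0.42 and 0.60. A stricter test, of whether the difference itself exceeds 2-fold, called 893 features.

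Called features were found at all abundances, but at unlike rates. By mean CPM over the 16 libraries, 4.19% of features under 0.1 CPM and 25.2% of those from 1 to 3 CPM were called. A mean of at least 5 CPM in at least 1 of the 4 groups was reached by 1216 of the 2659, while 577 stayed under 1 CPM in each group. Neither count was made over all features tested. In 171 called features at least 1 group had no count in any of its libraries, and their fitted folds depend on the prior count of the model. The call was kept by 1842 of the 2659 (69.3%) when each of the 16 libraries was left out in turn.

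**Figure D2:**
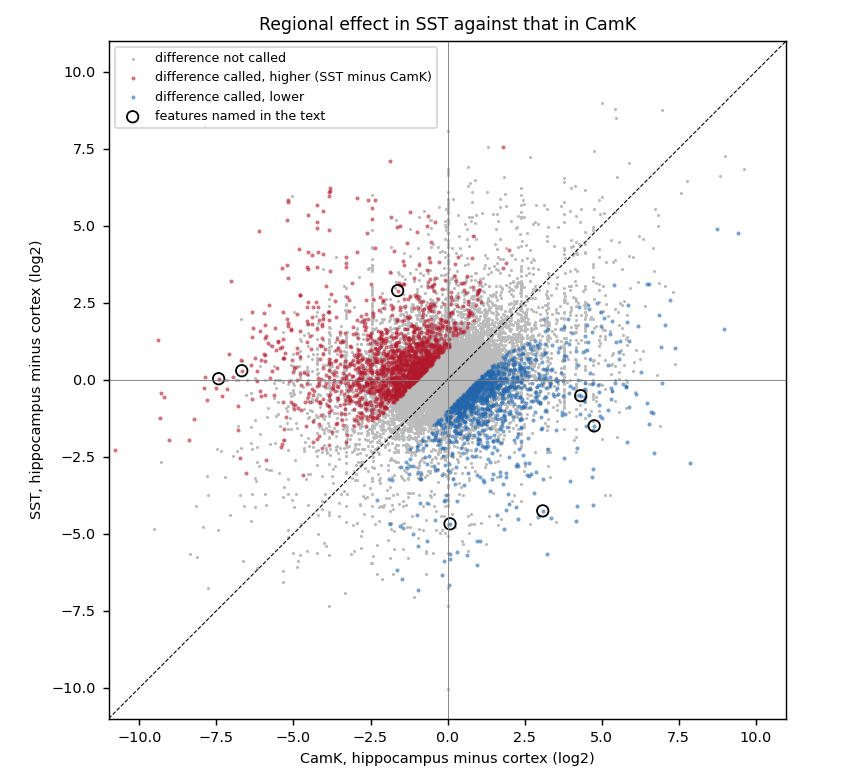
The hippocampus minus cortex effect in SST neurons (vertical axis, log2) against the same effect in CamK neurons (horizontal axis, log2) for the features tested, with features called for the difference in red (1571, higher) and blue (1088, lower) and the named features circled. The dashed line marks equal effects, and called features lie on either side of it.

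The largest class of called features had a regional effect called in CamK neurons and not in SST neurons. Taken alone, hippocampus against cortex called 1833 features in SST neurons (7.46% of those tested) and 3411 in CamK neurons (13.9%). In SST neurons 963 were higher in the hippocampus (3.92%) and 870 lower (3.54%), and in CamK neurons 1333 were higher (5.43%) and 2078 lower (8.46%). Among the 2659 features called for the difference, the regional effect was called in CamK and not in SST for 1389 (52.2%), and in SST and not in CamK for 462 (17.4%). Both regional effects were called in opposite directions for 154, and in the same direction with unequal size for 119. The remaining 535 (20.1%) had neither regional effect called, and in all of these the estimates had opposite signs. The call rules favour this, as effects of the same sign that are each under 2-fold cannot differ by 2-fold. These counts come from the libraries of the difference itself and are a description of it. They also move with the fold threshold, without which the opposite class held 680 features and the class with neither effect called held 334. With each effect tested against 2-fold, the opposite class held 14 features, the class with the same direction 13 and the class with neither 211. CamK only remained the largest class, with 2995 features without the fold threshold and 536 when tested against 2-fold.

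A regional effect called in 1 population and not in the other did not by itself show that the populations differed. Of the 1056 features called for region in SST only, the difference was called in 462 (43.8%) and not in 594. Of the 2634 called in CamK only, it was called in 1389 (52.7%) and not in 1245. For the 255 features lower in hippocampus in SST only whose difference was not called, the median regional effect was -1.63 in SST and -0.62 in CamK. For the 760 lower in hippocampus in CamK only, it was -0.57 in SST and -1.57 in CamK. In these features the estimates of both populations thus pointed the same way at the median.

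Where the difference was called, the median effect of the other population lay between -0.45 and 0.23. The way these classes were chosen favours a small or opposite effect there. The 904 features lower in the hippocampus in CamK only had a median effect of 0.09 in SST and -1.97 in CamK. The 485 features higher in the hippocampus in CamK only had a median of -0.13 in SST and 1.84 in CamK. The 245 features higher in the hippocampus in SST only had a median of 1.91 in SST and -0.45 in CamK, and the 217 that were lower had -1.77 in SST and 0.23 in CamK. Among the 119 features that moved the same way in both populations with a called difference, CamK moved further in 98 and SST in 21. Of the 623 features called for region in the same direction in both populations, 243 that were higher in the hippocampus and 261 that were lower had no called difference, a result that does not show equal effects.

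**Figure D3:**
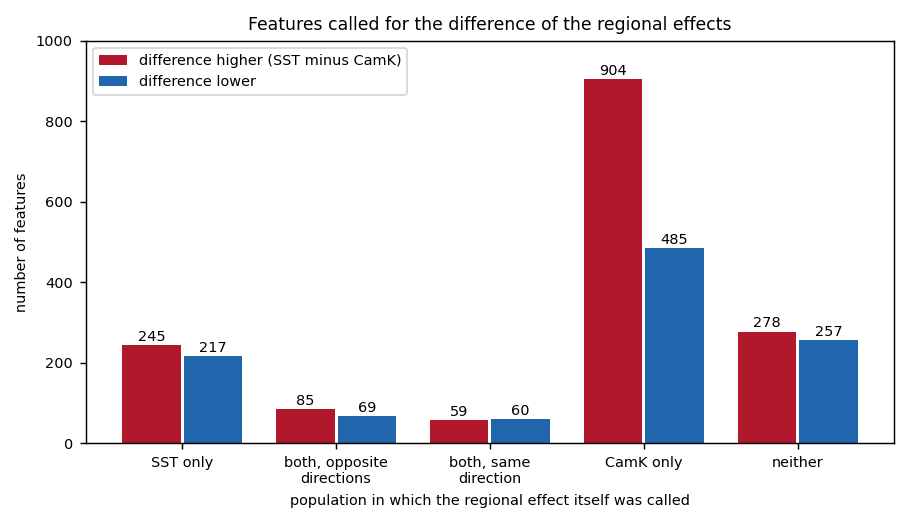
Number of features called for the difference of the regional effects, by the population in which hippocampus against cortex was itself called, with higher differences in red and lower ones in blue. The largest class is CamK only, with 904 higher and 485 lower features.

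GSMG0005879 had the largest positive difference among the named features, and of the 4 groups it was near 0 in CamK hippocampus alone. In SST hippocampus its 4 libraries held 4.37, 4.12, 6.46 and 7.89 CPM, and in SST cortex 5.69, 4.84, 6.25 and 5.57 CPM. In CamK hippocampus they held 0.0759, 0.0579, 0.059 and 0.0761 CPM, and in CamK cortex 7.94, 11.7, 13.2 and 14.5 CPM. The SST libraries of both regions overlapped, while every CamK hippocampus library lay far below every CamK cortex library. The regional effect was 0.03 in SST (SE 0.19, edgeR adjusted p = 0.943) and -7.43 in CamK (SE 0.29, adjusted p = 4.84e-19). Their difference was 7.46 on the log2 scale (SE 0.34, edgeR adjusted p = 1.38e-16). The CamK hippocampus value rests on 28 counts over 4 libraries. Among the groups outside the comparison the feature was nearly lacking in Grik hippocampus (0.0803 ± 0.0163 CPM) too, and it stood at 11.3 ± 0.804 CPM in Scnn cortex and 58.6 ± 10.7 CPM in PV cortex (SD, n = 4 each).

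GSMG0000011 followed the same pattern. It had 2.37, 2.55, 2.16 and 1.72 CPM in SST hippocampus and 1.71, 2.04, 1.74 and 1.71 CPM in SST cortex. It had 0.038, 0.0869, 0.059 and 0.019 CPM in CamK hippocampus, from 21 counts in all, and 5.53, 4.43, 5.97 and 5.29 CPM in CamK cortex. Again the SST libraries overlapped between the regions and the CamK libraries did not. With region it changed by 0.29 in SST (SE 0.35, edgeR adjusted p = 0.621) and -6.68 in CamK (SE 0.48, adjusted p = 7.05e-13), and the difference was 6.97 (SE 0.59, adjusted p = 8.97e-11). Of the other cortical groups Scnn cortex held 0.325 ± 0.206, PV cortex 0.197 ± 0.0581 and VIP cortex 0.656 ± 0.327 CPM (SD, n = 4 each).

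GSMG0029117 changed in opposite directions in the populations. It had 0.417, 0.534, 0.412 and 0.524 CPM in SST hippocampus, against 9.59, 10.5, 7.23 and 8.79 CPM in SST cortex. In CamK hippocampus it had 2.14, 3.24, 2.16 and 2.24 CPM, against 0.488, 0.228, 0.257 and 0.17 CPM in CamK cortex. The groups did not overlap in either population. The regional effect was -4.26 in SST (SE 0.42, edgeR adjusted p = 4.12e-09) and 3.09 in CamK (SE 0.42, adjusted p = 3.45e-07), which gave a difference of -7.35 (SE 0.59, adjusted p = 3.37e-11). Read by region, SST lay below CamK in the hippocampus (log2 difference -2.37, SE 0.40, edgeR adjusted p = 5.94e-06) and above it in the cortex (4.98, SE 0.44, adjusted p = 2.79e-11). No group outside the comparison averaged above 0.45 CPM, the level of VIP cortex.

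GSMG0043833 also changed in opposite directions, mostly through CamK. SST hippocampus held 1.2, 1.38, 0.842 and 1.73 CPM and SST cortex 5, 3.86, 2.75 and 3.03 CPM. CamK hippocampus held 12.2, 11, 12.6 and 9.9 CPM and CamK cortex 0.437, 0.404, 0.683 and 0.16 CPM. The libraries of the regions did not overlap in either population. The log2 change with region was -1.50 in SST (SE 0.30, edgeR adjusted p = 0.000356) and 4.76 in CamK (SE 0.35, adjusted p = 1.16e-12), and the difference was -6.26 (SE 0.46, adjusted p = 4.49e-12). Unlike CamK hippocampus (11.4 ± 1.23 CPM), Grik hippocampus held 1.27 ± 0.285 CPM (SD, n = 4 each).

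Among features whose regional effect was called in SST only, GSMG0029293 had the largest positive difference that met the conditions for naming. It stood at 8.54, 8.38, 7.19 and 5.84 CPM in SST hippocampus, against 1.09, 0.816, 1.09 and 1.05 CPM in SST cortex. CamK hippocampus held 0.038, 0.0772, 0 and 0 CPM and CamK cortex 0.061, 0.104, 0.0792 and 0.12 CPM, from 12 and 36 counts in all. SST libraries of hippocampus all lay above those of cortex, and CamK libraries were near 0 in both regions. Its hippocampus minus cortex effect was 2.89 in SST (SE 0.47, edgeR adjusted p = 2.89e-05). In CamK it was -1.62 (SE 0.75, adjusted p = 0.0954) and rests on these few counts. The difference was 4.50 (SE 0.87, edgeR adjusted p = 0.000232), and how much of it exceeds the SST change is poorly determined. Of the other interneuron groups VIP cortex held 3.39 ± 0.553 CPM and PV cortex 0.197 ± 0.0817 CPM (SD, n = 4 each).

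GSMG0038640 was high in SST cortex and low in the other 3 groups. It had 0.759, 0.832, 0.653 and 0.935 CPM in SST hippocampus, against 19.7, 20.9, 18.9 and 21.9 CPM in SST cortex. CamK hippocampus had 0.626, 0.367, 0.197 and 0.656 CPM and CamK cortex 0.559, 0.404, 0.564 and 0.22 CPM, and these overlapped. The regional effect was -4.68 in SST (SE 0.37, edgeR adjusted p = 8.23e-11) and 0.08 in CamK (SE 0.37, adjusted p = 0.903). The difference was -4.76 (SE 0.51, edgeR adjusted p = 1.66e-08). The highest mean among the groups outside the comparison was 1.27 ± 0.25 CPM in Grik hippocampus (SD, n = 4).

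GSMG0040475 had the largest negative difference, among features that met the conditions for naming, where region was called in CamK only. It had 8.07, 5.45, 7.08 and 7.25 CPM in SST hippocampus and 8.31, 11.7, 10.3 and 9.57 CPM in SST cortex. It had 34.6, 34.9, 29 and 26.6 CPM in CamK hippocampus, against 1.41, 1.2, 2.19 and 1.47 CPM in CamK cortex. The SST groups lay just apart, by less than 2-fold, and the CamK groups lay far apart. The regional effect was -0.52 in SST (SE 0.17, edgeR adjusted p = 0.0277) and 4.32 in CamK (SE 0.20, adjusted p = 2.23e-17), and the difference was -4.83 (SE 0.26, adjusted p = 3.22e-15). Grik hippocampus, at 31 ± 1.58 CPM, was at the level of CamK hippocampus, at 31.3 ± 4.1 CPM, and Scnn cortex held 6.64 ± 1.24 CPM (SD, n = 4 each).

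**Figure D4:**
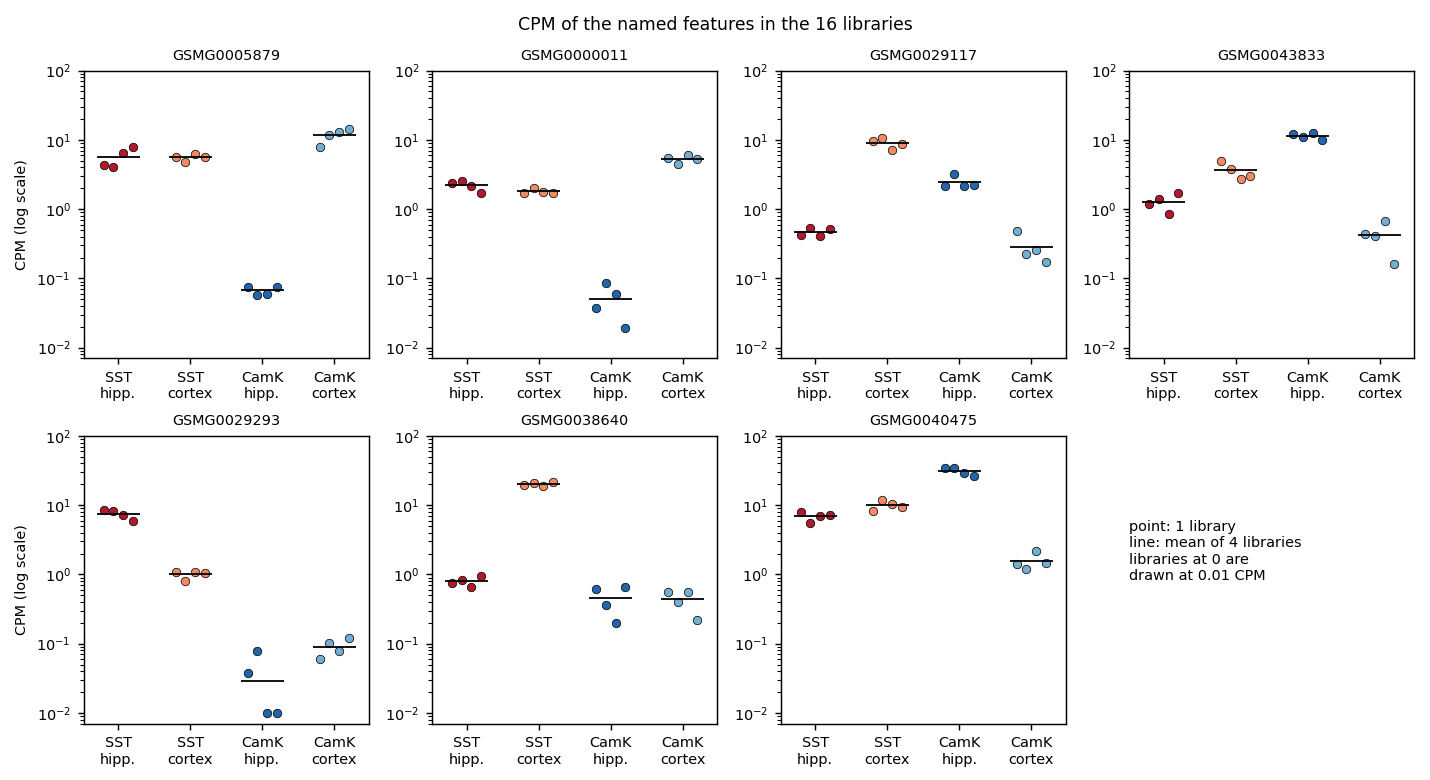
CPM (log scale) of the 7 named features in each of the 16 libraries, with 1 point per library and a line at the mean of 4 libraries, and libraries at 0 drawn at 0.01 CPM. GSMG0005879 and GSMG0000011 are low in CamK hippocampus, GSMG0038640 is high in SST cortex (mean 20.4 CPM), and GSMG0029117 and GSMG0043833 change in opposite directions in SST and CamK.

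The same 2659 features can be read as those in which the contrast between SST and CamK neurons depended on the region. SST against CamK called 6575 features in the hippocampus (26.8% of those tested), with SST higher in 3946 (16.1%) and lower in 2629 (10.7%). In the cortex it called 6011 (24.5%), with SST higher in 3201 (13.0%) and lower in 2810 (11.4%). Of the 2659, 921 had SST and CamK called different in the hippocampus only, with SST higher in 561 and lower in 360. Another 779 were called in the cortex only, with SST higher in 344 and lower in 435. In 528 SST and CamK were called in both regions with the same sign, by a larger size in the hippocampus in 281 and in the cortex in 247. The sign turned in 159, with SST above CamK in the hippocampus and below it in the cortex in 96, and the reverse in 63. In 272 the population difference was called in neither region. These classes were not counted over all features tested, so their sizes describe the called features and do not set them apart.

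CamK groups were more often the odd one out. For each called feature the group furthest from the mean of the other 3 was found on log2 group means with 0.1 CPM added. It was SST hippocampus in 495 features (18.6%), SST cortex in 332 (12.5%), CamK hippocampus in 926 (34.8%) and CamK cortex in 906 (34.1%). Over all features tested these shares were 25.3% for SST hippocampus, 17.7% for SST cortex, 28.4% for CamK hippocampus and 28.6% for CamK cortex. CamK hippocampus stood out by a low level in 576 called features and by a high level in 350. CamK cortex stood out by a high level in 555 and by a low level in 351. SST hippocampus stood out by a high level in 297 features with a higher difference and by a low level in 197 with a lower one, and SST cortex by a low level in 141 and by a high level in 189.

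Libraries outside the comparison allowed the CamK regional changes to be looked at in other excitatory neurons. Grik hippocampus and Scnn cortex share no library with the 4 groups. They differ in driver and title series as well as in region, so their difference is not a regional effect alone. Of all features tested 6734 (27.4%) were called between them, 9.00% higher and 18.4% lower in Grik hippocampus than in Scnn cortex. Of the 904 features lower in the hippocampus in CamK only with a called difference, 509 (56.3%) were also called lower in Grik hippocampus than in Scnn cortex and 45 (4.98%) higher. Of the 485 features higher in the hippocampus in CamK only, 238 (49.1%) were called higher in Grik hippocampus and 52 (10.7%) lower. Both shares lay above those of all features tested, as a description without a test and not matched for abundance. The features tested include 4538 that averaged under 0.1 CPM over the 16 libraries. Features without a called difference also exceeded them. Where region was called in CamK only and the difference was not called, 413 of 760 features lower in the hippocampus (54.3%) were called lower in Grik hippocampus, and 183 of 485 higher in the hippocampus (37.7%) were called higher.

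Features whose regional effect was called in SST only were looked at in the same libraries, beside the 9.00% higher and 18.4% lower of all features tested. Of the 245 higher in the hippocampus, 70 (28.6%) were called higher and 69 (28.2%) lower in Grik hippocampus than in Scnn cortex. Both shares lay above those of all features tested, so a share above these does not by itself show a change in the same direction. Of the 217 lower in the hippocampus, 30 (13.8%) were called higher and 81 (37.3%) lower. No difference between the SST and the CamK classes was tested.

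Among the 7 named features, GSMG0005879 was lower in Grik hippocampus than in Scnn cortex, at -7.12 on the log2 scale (SE 0.28, edgeR adjusted p = 5.63e-20), close to its CamK regional effect of -7.43. GSMG0000011 was also lower, at -2.82 (SE 0.48, edgeR adjusted p = 8.37e-06), with -6.68 in CamK. Its level was 0.045 ± 0.045 CPM in Grik hippocampus and 0.325 ± 0.206 CPM in Scnn cortex, against 5.3 ± 0.648 CPM in CamK cortex (SD, n = 4 each). GSMG0040475 was higher by 2.22 (SE 0.18, edgeR adjusted p = 2.16e-12), with 4.32 in CamK, and GSMG0043833 by 1.64 (SE 0.32, adjusted p = 7.09e-05), with 4.76 in CamK. These 4 features changed in the same direction as in CamK. GSMG0029117 went the other way, at -1.29 (SE 0.44, edgeR adjusted p = 0.0132) in Grik hippocampus against Scnn cortex and 3.09 in CamK. Both groups were low for it, at 0.166 ± 0.0795 CPM in Grik hippocampus and 0.407 ± 0.0901 CPM in Scnn cortex (SD, n = 4 each). Of the features called for region in SST only, GSMG0038640 did not pass, at 0.47 (SE 0.34, edgeR adjusted p = 0.252). GSMG0029293 was lower, at -3.06 (SE 0.72, edgeR adjusted p = 0.000653), opposite in sign to its SST effect of 2.89. It was near 0 in both groups, at 0.0226 ± 0.0287 CPM in Grik hippocampus and 0.199 ± 0.2 CPM in Scnn cortex (SD, n = 4 each).

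**Figure D5:**
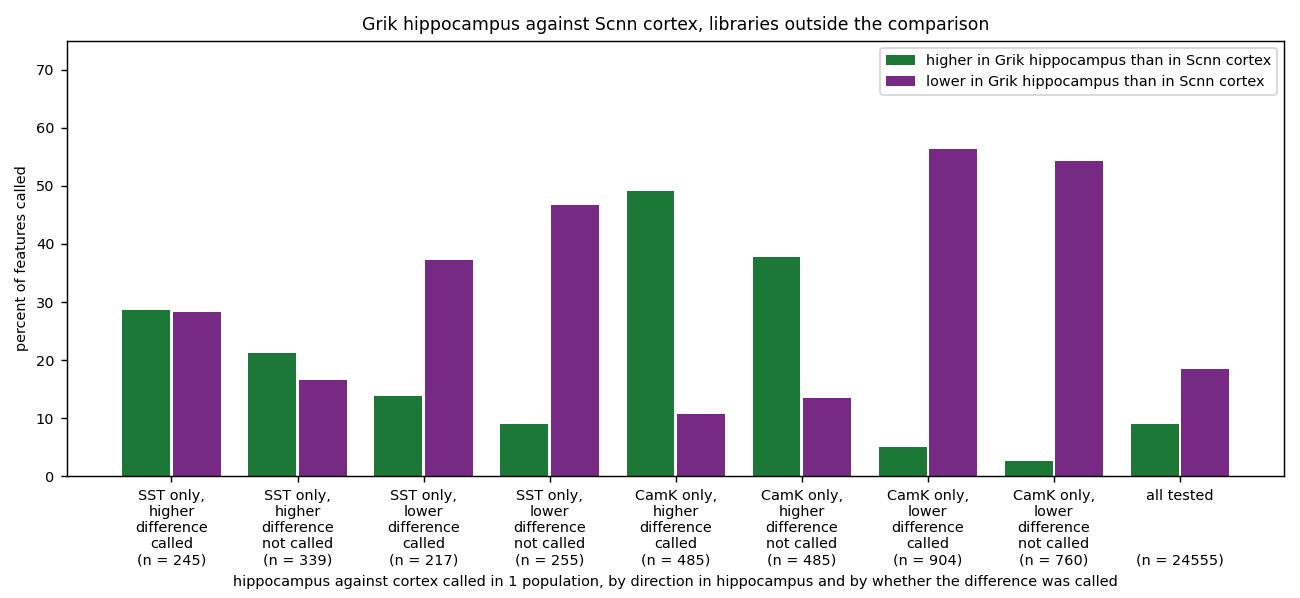
Percent of features called higher (green) or lower (purple) in Grik hippocampus than in Scnn cortex, for features with region called in SST only or in CamK only, with and without a called difference of the regional effects, and for all features tested. Features lower in the hippocampus in CamK only were called lower in Grik hippocampus in 56.3% of cases with a called difference and in 54.3% without one, against 18.4% of all features tested.

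Some measures of the libraries moved with the groups. GSMG0043055, a feature that was near 0 in some libraries and at 31.8 CPM or more in others, was at 10 CPM or more in 4 of 4 SST hippocampus, 3 of 4 SST cortex, 3 of 4 CamK hippocampus and 1 of 4 CamK cortex libraries. With this state as a covariate, added after its values were seen, 2656 features were called, 2557 of them among the 2659 (96.2% of those), and none of the 2659 changed sign. The abundant features GSMG0038934 and GSMG0023431 together took 2.49% ± 0.873 of counts in SST hippocampus and 1.36% ± 0.927 in SST cortex. The pair took 0.141% ± 0.047 in CamK hippocampus and 0.251% ± 0.079 in CamK cortex (SD, n = 4 each). Outside the comparison it took 4.57%, 13%, 2.56% and 6.78% in the Scnn cortex libraries. In those of Grik hippocampus it took 0.317%, 0.331%, 0.396% and 0.538%. The difference of regional effects was 1.78 (SE 0.67, edgeR adjusted p = 0.0564) for GSMG0038934 and 1.80 (SE 0.68, adjusted p = 0.0561) for GSMG0023431, and neither was called. GSMG0018104, which varied widely within hippocampal groups, was higher in the hippocampus by 6.61 in SST and by 8.85 in CamK, and its difference of -2.24 (SE 2.68, edgeR adjusted p = 0.615) was not called. These features were singled out after their values were seen. The part of GSMG0038934, GSMG0023431 and GSMG0018104 in the other results was not tested.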

How the data were processed

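RNA associated with ribosomes was sequenced in 32 libraries of 8 groups of 4, assigned from titles and tissue labels. A stranded kit that selects polyadenylated RNA was used, per the labels' protocols. The submitters' processing notes name GRCm38, FastQC, Picard, SAMtools and featureCounts, without saying what each did. The aligner, annotation and strand setting were not given in the sources used here. Hence overlapping, antisense and near-identical features are uncertain. The authors' deposited values are expected counts per feature, of which 20.1% of those above 0 were whole within 1e-06. Small whole values were mostly even, as when each mate of a read pair is counted, and halved counts were therefore tried. A feature length was also deposited, in a column of its own. Another 12 columns of per-sample values match no label and were not used.

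Expected counts were rounded and fitted with edgeR 4.0.16 in R 4.3.3. filterByExpr kept 24555 of 56459 features, library sizes were normalised by TMM, and group means were estimated by robust quasi-likelihood from all 32 libraries (24 residual degrees of freedom, common biological coefficient of variation 0.253). Contrasts were tested by the quasi-likelihood F test with Benjamini-Hochberg adjustment over all features tested, and calls needed an adjusted p under 0.05 together with a 2-fold or greater value. The SE is the log2 value over the square root of F. CPM are TMM-normalised. The test was checked on simulated counts. Named features had the largest differences each way among those called that averaged 5 CPM or more in 1 of the 4 groups and kept the call without each library in turn (2 each way for the difference, 1 each way for features called for region in SST only or in CamK only). GSMG0005879 came under 2 of these parts. The members, lists and tests were chosen with earlier results of these data known, and the Grik against Scnn contrast was added after the data were seen. Libraries of a group differed by more than counting noise in every pair (chi-square per degree of freedom of at least 13.3 on halved counts), so none was counted as a repeat. DESeq2 1.42.0 and limma 3.58.1 were used as alternatives, beside other scalings, filters, fold rules, a replicate block and leaving out each library.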

Additional observations from a re-analysis of the deposited data

Results flagged for a closer look

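The difference of the regional effects is itself a test of whether hippocampus against cortex differs between SST and CamK neurons, and 2659 features passed it. The log2 differences of the named features were 7.46 for GSMG0005879, 6.97 for GSMG0000011, 4.50 for GSMG0029293, -7.35 for GSMG0029117, -6.26 for GSMG0043833, -4.83 for GSMG0040475 and -4.76 for GSMG0038640, each described above with its SE and adjusted p.

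Single libraries stood apart in 4 of 40 groups of 4 values examined by Dixon's ratio at the 95% level, and chance gives about 1 in 20. SST hippocampus replicate 1 had 186505391 counts. GSMG0000011 was at 2.04 CPM and GSMG0029293 at 0.816 CPM in SST cortex replicate 2, and GSMG0029117 was at 3.24 CPM in CamK hippocampus replicate 3. Without any 1 of the 16 libraries these 3 features kept their calls, which was a condition for naming them. Without SST hippocampus replicate 1 the difference called 2621 features, 2416 of them among the 2659.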

How the results depend on the processing

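The number of features called for the difference ranged from 2464 (without SST hippocampus replicate 2) to 2658 (without CamK hippocampus replicate 2) when 1 library was left out, with 1391 to 1571 higher, 1035 to 1132 lower, and 55.1% to 59.8% of calls higher. Without the fold threshold 5694 features passed (2991 higher, 2703 lower), and with edgeR's test against 2-fold 893 (541 higher, 352 lower), by the construction of these rules. The count was 2664 in a fit to the 16 libraries alone, 2469 with no filter on low counts, 2253 with at least 1 CPM in 4 libraries, 2959 by DESeq2, 2617 by limma-voom, 2647 with RLE and with upper-quartile scaling, and 2658 on halved counts. No feature of the 2659 changed sign in any of these fits, or without a library, in which it was tested. The 7 named features kept their calls in all of them, and keeping the call without each library was a condition for naming them. GSMG0029293 varied most, from 4.07 to 5.58 without 1 library.

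Same-numbered libraries did not deviate together. Of 7 pairs of 1 title series, each SST with CamK, 0 correlated above 0.1 (range -0.003 to 0.051). Of 12 pairs across title series 0 did (range -0.075 to 0.058), and these include the pairs of 1 population across regions. As 5 of 16 libraries correlated best with their own number, the numbers were not taken to pair the samples. With the title number as a replicate block 2595 features were called, and 2266 in the 16 libraries with the block within the title series, which leaves SST hippocampus replicate 1 and CamK hippocampus replicate 4 without weight. The share of variance of the interaction was 8.45% to 9.19% under other prior counts and 8.88% under the stricter filter. Leaving replicates out of that share was not run. Counts limit features at low level: under 0.1 CPM the median SE was 1.87, against 0.12 at 100 CPM or more.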

Other observations

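The share of features called for the difference depended on abundance, in bins chosen after the data were seen. By mean CPM over the 16 libraries it was 4.19% of 4538 features under 0.1 CPM, 17.9% of 2886 features from 0.3 to 1 CPM, 25.2% of 2327 from 1 to 3 CPM, 17.4% of 2794 from 3 to 10 CPM, and 5.2% of 2192 features at 100 CPM or more. The median SE fell over the same bins, to 0.37 from 1 to 3 CPM and 0.12 at 100 CPM or more. From 1 CPM upward the share was lowest in the most abundant bin. In each bin more features were higher than lower in SST relative to CamK, between 53.4% and 67.9% of calls.

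The deposited length had a median of 1799 for called features and 1639 for all features tested, with 1922 for those that were higher and 1676 for those that were lower, given without a test.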
